A study of Homo sapiens with 8 samples.

Results

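The 10 genes described here encode amino acid transporters of the plasma membrane, or the chain that carries such transporters there: SLC7A5, SLC3A2, SLC7A1, SLC7A6, SLC38A1, SLC38A2, SLC1A4, SLC1A5, SLC6A9, and SLC43A1. They were chosen by name, and each symbol matched 1 of the 60230 genes in the deposited table. All 10 passed the filter on low counts, which left 13404 genes. The study asked whether compounds used in plastics are harmful to liver cells rich in the drug-metabolizing enzyme CYP3A4. Its cells were HepG2, an established line from a human liver carcinoma, transfected to overexpress CYP3A4 and kept under blasticidin. Control cells received the solvent DMSO, and treated cells received compound 4, 5, or 6 (metylcresol, tetrabut, and cyclohexil in the labels) for 24 h. Each of these 4 groups had 2 replicates, named day 1 and day 2 in the labels, so 8 samples of mRNA were sequenced. Each compound was given at its own IC50, the concentration that lowers viability midway in a cytotoxicity assay. Concentrations therefore differed between compounds, and the IC50 came from a longer exposure than the 24 h before RNA was taken, so neither dose nor viability at sampling was matched. All 3 are phenolic antioxidants built from a pair of phenol rings. In compound 4 the rings are joined by a methylene bridge, and each ring carries a methyl and a tert-butyl group. Compound 6 has cyclohexyl in place of tert-butyl, whereas compound 5 has an ethane-derived bridge and a pair of tert-butyl groups on each ring.

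Amino acids cross the plasma membrane through carriers of several families. SLC3A2 (CD98 heavy chain) does not carry amino acids itself but brings light chains such as SLC7A5 to the surface, where SLC7A5 takes up leucine and other large neutral amino acids in exchange for glutamine. Sodium-coupled carriers such as SLC38A2 and SLC1A5 load the cell with glutamine, alanine, and serine. When amino acids run short or the endoplasmic reticulum is stressed, phosphorylation of eIF2 alpha favours translation of ATF4, a transcription factor that binds amino acid response elements of several of these genes. This circuit is called the integrated stress response. Hepatocytes are known for low SLC7A5, and liver cancer cells for high SLC7A5.

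The sequences around the transcription start are shown for the 5 genes with an amino acid response element core near a start, the motif bound by ATF4, and for SLC7A5. RefSeq (GRCh38.p14) windows from 250 bases before to 50 bases after each start were searched on both strands, and all 10 genes had at least 1 window, 17 in all. The motifs were the amino acid response element core TGATGNAA, the E-box CACGTG, and the antioxidant response element core TGACNNNGC, which can overlap an AP-1 site. Stretches of 170 bases, 150 before the start and 20 from it, are printed in the direction of transcription, with matches in capitals.
SLC3A2, chr11:62881549-62881718, plus strand: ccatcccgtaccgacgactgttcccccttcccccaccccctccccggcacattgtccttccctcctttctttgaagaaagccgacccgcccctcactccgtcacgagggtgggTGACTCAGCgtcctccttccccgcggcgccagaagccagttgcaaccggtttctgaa
SLC7A5, chr16:87869488-87869657, minus strand: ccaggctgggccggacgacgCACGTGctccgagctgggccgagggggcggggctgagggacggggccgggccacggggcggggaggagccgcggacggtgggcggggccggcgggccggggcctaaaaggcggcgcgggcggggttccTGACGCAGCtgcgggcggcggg
SLC7A1, chr13:29595669-29595838, minus strand: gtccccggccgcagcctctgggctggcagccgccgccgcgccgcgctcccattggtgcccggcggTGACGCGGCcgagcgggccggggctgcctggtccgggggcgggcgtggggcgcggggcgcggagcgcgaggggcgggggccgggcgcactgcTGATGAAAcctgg
SLC38A1, chr12:46266497-46266666, minus strand: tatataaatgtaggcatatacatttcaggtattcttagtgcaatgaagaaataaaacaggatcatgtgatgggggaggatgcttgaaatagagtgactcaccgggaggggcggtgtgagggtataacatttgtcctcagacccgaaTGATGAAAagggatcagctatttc
SLC1A4, chr2:64989249-64989418, plus strand: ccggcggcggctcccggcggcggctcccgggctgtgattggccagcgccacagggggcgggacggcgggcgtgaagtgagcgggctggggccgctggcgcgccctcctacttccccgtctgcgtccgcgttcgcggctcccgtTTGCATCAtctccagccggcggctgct
SLC1A5, chr19:46784795-46784964, minus strand: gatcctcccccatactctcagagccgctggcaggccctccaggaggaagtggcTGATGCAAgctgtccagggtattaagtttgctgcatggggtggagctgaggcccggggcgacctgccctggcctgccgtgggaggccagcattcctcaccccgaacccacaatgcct
The response element core lay 7 bases before the start of SLC1A4 (as TTGCATCA, on the opposite strand), 4 before that of SLC38A1, and 97 before this start of SLC1A5, and it began at base 8 of SLC7A1. SLC3A2 held it at base 38, beyond the stretch shown, beside the antioxidant core TGACTCAGC at 37 bases before the start. Of the 17 windows, 5 (29.4%) held the response element core, against 3.62% of all 35116 RefSeq windows. CACGTG was found in 3 of the 17 windows (17.6%; SLC7A5, SLC1A5, and SLC43A1) against 7.26% of all, and TGACNNNGC in 5 (29.4%; SLC3A2, SLC7A5, SLC7A1, SLC7A6, and SLC1A5) against 13.3% of all. The matches of SLC43A1 and SLC7A6 are not printed, nor are CACGTG and TGACNNNGC of SLC1A5, which lie at another start than the one shown. In SLC7A5 the windows held CACGTG 130 bases before the start and TGACGCAGC 2 bases before it, but not the response element core. These matches describe letters in a window, not binding.

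Some properties of the libraries bear on the values. The counts per sample summed to between 9472261 and 13308975, so that 3 counts, the floor for a gene with none, corresponded to 0.225 to 0.317 CPM (counts scaled to a common library total, counting error only). The floor and the marker genes below are given without TMM scaling, and all other CPM with it. Replicate 1 of compounds 4 and 5 was merged from 2 S-numbered sets according to the labels, which do not say what these are. The compound 4 replicates differed by transcript length, and which of them was unusual cannot be told. The median gene over 6 kb was lower in replicate 2 than in replicate 1 by a log2 difference of -0.29 (2150 genes). In contrast, the median gene under 2 kb was higher in replicate 2 by 0.18 (3304 genes). In the other groups these medians lay between -0.11 and 0.13. Hepatocyte markers such as ALB were high in every sample, with a summed level of 8 genes of 42000 and 40800 CPM in DMSO, 31000 and 30700 under compound 4, 31400 and 31200 under compound 5, and 38200 and 31600 under compound 6. ALB alone made up 17000 to 18900 CPM of this sum in DMSO. In every treated sample ALB, AFP, APOA1, and TF were lower than in both controls, whereas the other markers were mixed. TTR was at 101 and 77.4 CPM in DMSO, 127 and 148 under compound 4, and 76.3 and 73.5 under compound 5. Under compound 6 TTR was at 113 and 78.7. APOB was at 5790 and 7750 in DMSO and 6560 and 2880 under compound 4. With compound 5 APOB was at 8260 and 6620, and with compound 6 at 8410 and 7650. SERPINA1 and HNF4A overlapped DMSO under compounds 4 and 6 and were lower under compound 5. The immune list reached 1810 to 3100 CPM, nearly all of it LYZ, while PTPRC and CD3E had 0 counts. Endothelial markers summed to 0.827 to 2.07 CPM, with KDR at 0. Fibroblast markers summed to 1.71 to 8.78 CPM, with COL1A2, DCN, and LUM at 0, and nearly all of it was PDGFRB, at 2.71 and 1.71 CPM in DMSO but 8.6 and 6.29 under compound 4. CYP3A4 itself was at 198 and 207 CPM in DMSO, 287 and 216 under compound 4, 371 and 421 under compound 5, and 170 and 171 under compound 6. It rose with compound 5 (log2 fold change 0.97, SE 0.13, edgeR adjusted p = 0.000724) and did not pass with compound 4 (0.31, edgeR adjusted p = 0.162) or with compound 6 (-0.25, edgeR adjusted p = 0.344). The part of the length pattern, of the hepatocyte markers, of PDGFRB, and of CYP3A4 in the results below was not tested, except where a length correction is given.

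In control cells the 10 transcripts covered a wide range. Levels between genes are given per length, as CPM per kb of the longest annotated transcript. SLC38A2 was highest (176 and 180 CPM per kb in the DMSO replicates), followed by SLC1A5 (139 and 133), SLC3A2 (107 and 90.5), and SLC7A5 (94.6 and 89.9). SLC3A2 and SLC7A5 overlapped, so their order cannot be told. A middle tier held SLC43A1 (35.4 and 32.3) and SLC38A1 (23.1 and 25.8). Below them stood SLC1A4 (18.8 and 16.3), SLC7A1 (16.6 and 17.1), and SLC7A6 (12.5 and 13), of which SLC1A4 and SLC7A1 overlapped. SLC6A9, the glycine transporter GlyT1, was lowest at 3.58 and 3.35. With compound 5 the order at the top turned: SLC3A2 reached 518 and 567 CPM per kb and lay above SLC38A2 at 436 and 409. Together the 10 genes took 0.255% of all counts in both DMSO samples, 0.392% and 0.378% under compound 4, 0.589% and 0.574% under compound 5, and 0.338% and 0.401% under compound 6.

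**Figure D1:**
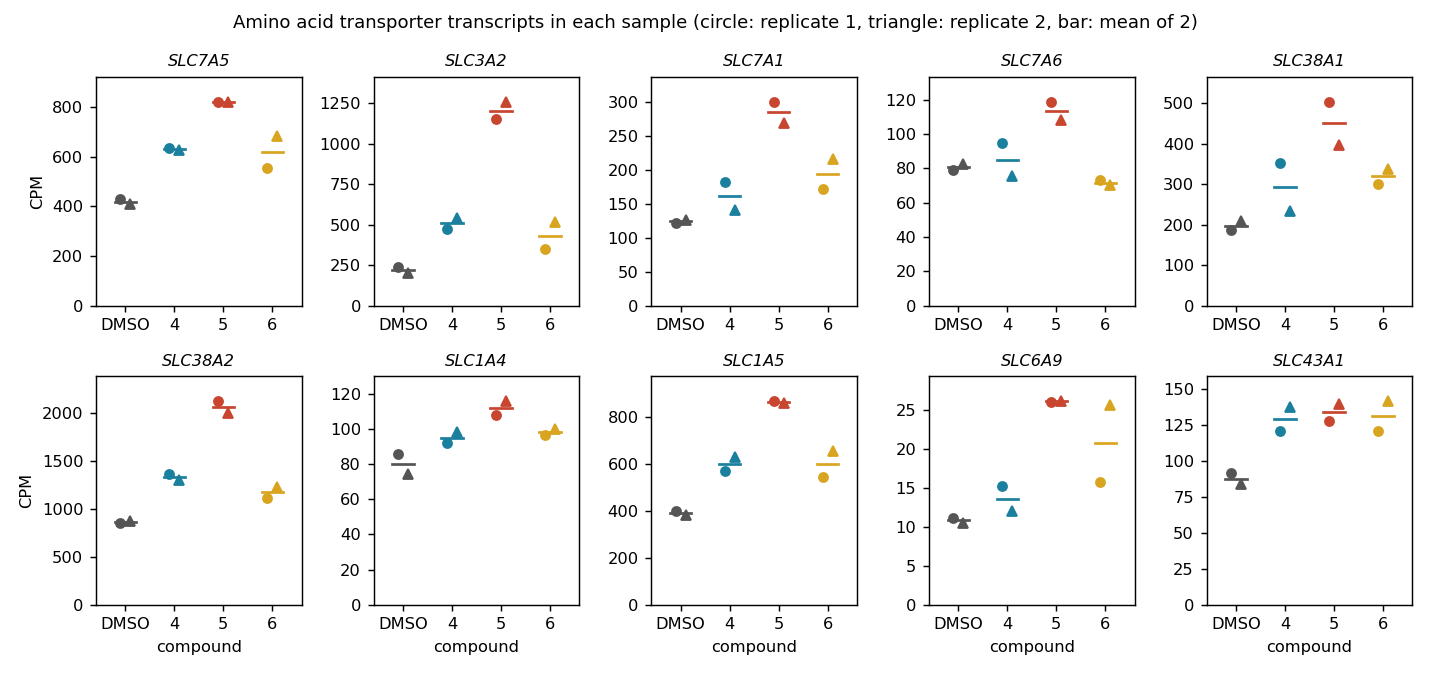
Level of each of the 10 transcripts in CPM (vertical axis, linear and from 0) in DMSO and with compounds 4, 5, and 6; circles are replicate 1, triangles replicate 2, and bars the mean of both. Compound 5 has the highest mean in every panel, while for SLC43A1 the 3 compounds share a common range of 121 to 142 CPM.

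All 10 transporters rose with compound 5, 5 rose with compound 4, and 7 rose with compound 6, and none fell with any compound. Lower calls numbered 0 in edgeR and in DESeq2, and no member was lower at an unadjusted p under 0.05 in either tool, except in edgeR with the length correction described below, where SLC7A6 was with compound 6 (-0.21, edgeR adjusted p = 0.177). The threshold was 0.05 for the p-value of edgeR's quasi-likelihood test, adjusted by Benjamini-Hochberg over 13404 genes. With compound 4, 6.5% of all genes tested were called higher and 5.42% lower. With compound 5 these shares were 13.9% and 14.2%, and with compound 6 they were 2.8% and 1.6%. The median log2 fold change of the 10 genes was 0.56 under compound 4, 1.17 under compound 5, and 0.60 under compound 6, whereas that of all genes tested was 0, -0.03, and 0. The 3 comparisons share the same DMSO samples and are not independent. The replicates come from 1 cell line, and the labels do not say what the days separate, so p-values measure only the spread between these samples. In such bulk samples, fewer cells of a kind and less RNA per cell cannot be told apart.

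The calls did not rest equally on the libraries. With compound 5, 8 to 10 members stayed called when any of the 8 libraries was left out, although calls over all genes fell from 3763 to 1685 and 2007 without DMSO replicate 1 or 2, and to 1680 and 2139 without replicate 1 or 2 of compound 5. With compound 4 the count was 2 without DMSO replicate 2, where calls over all genes fell from 1598 to 335, and otherwise 4 to 7. Compound 6 was the least settled: 0 members were called without DMSO replicate 1, without DMSO replicate 2, or without compound 6 replicate 2, and 4 without either replicate of compound 5. Calls over all genes with compound 6 fell as well, from 590 to 90, 1, and 49 in the 3 fits with 0 members called, and to 350 and 371 without replicate 1 or 2 of compound 5. In those fits with 0 calls, 9, 8, and 8 members had an unadjusted p under 0.05 in edgeR, and with all libraries 9 did. Blocking on the replicate number left 4 called with compound 6. In that group replicate 2 was higher than replicate 1 in 9 of the 10 genes, with a median absolute gap of 0.25 on the log2 scale against 0.18 over all genes.

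**Figure D2:**
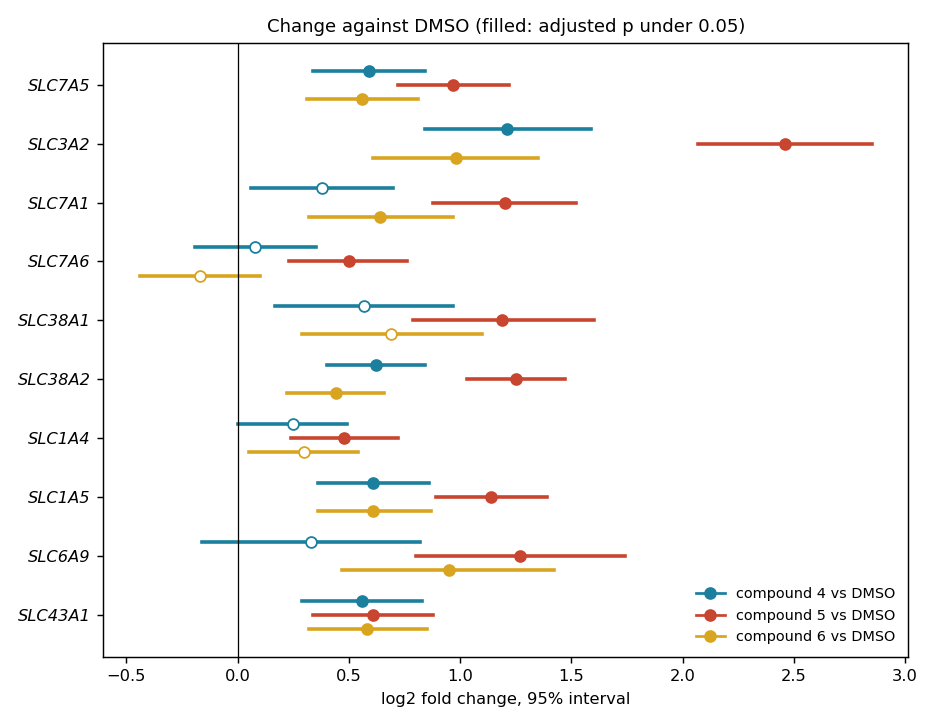
Log2 fold change against DMSO (horizontal axis) of each transporter with compounds 4, 5, and 6; points are edgeR estimates, lines their 95% intervals, and filled points have an adjusted p under 0.05. SLC3A2 under compound 5 lies farthest to the right at 2.46, and the interval of SLC7A6 spans 0 with compounds 4 and 6.

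The heavy chain SLC3A2 (chromosome 11, 62856102 to 62888875, plus strand; this and the positions below are GENCODE 29 on GRCh38) had the largest fold change of the 10 with every compound, though with compound 6 that of SLC6A9 was close. It was at 237 and 201 CPM in DMSO, 473 and 543 under compound 4, 1150 and 1260 under compound 5, and 350 and 514 under compound 6. Every treated sample lay above both controls, and the compound 5 samples lay above all others. The log2 fold change was 1.21 under compound 4 (SE 0.17, edgeR adjusted p = 0.00179), 2.46 under compound 5 (SE 0.18, edgeR adjusted p = 3.71e-05), and 0.98 under compound 6 (SE 0.17, edgeR adjusted p = 0.0125). In linear terms the rise with compound 5 was 5.50-fold, with a 95% interval of 4.21 to 7.19.

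SLC7A5, the light chain LAT1 (chromosome 16, 87830023 to 87869488, minus strand), rose less than its heavy chain. Its level was 429 and 408 CPM in DMSO, 633 and 627 under compound 4, 819 and 822 under compound 5, and 553 and 683 under compound 6. Again no treated sample overlapped the controls, and the compound 5 samples were highest. The log2 fold changes were 0.59 (SE 0.11, edgeR adjusted p = 0.00837), 0.97 (SE 0.11, edgeR adjusted p = 0.000313), and 0.56 (SE 0.11, edgeR adjusted p = 0.0236) with compounds 4, 5, and 6. Of the 31-base words in its transcripts, 6.11% also occur in another gene, mostly SMG1P3, and for the other members this share was at most 1.62%. Of the near-identical copies, SLC7A5P1 was assigned 0 counts in every sample and SLC7A5P2 6 to 30 counts. Of the words of SLC7A5P2, 100% also occur in another gene. How reads of shared words were divided between these genes was not tested, so the counts do not show what the copies contributed.

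SLC7A6, the light chain y+LAT2 that exchanges cationic for neutral amino acids (chromosome 16, 68264516 to 68301823, plus strand), behaved differently. It was at 78.9 and 82.3 CPM in DMSO, 94.6 and 75.8 under compound 4, 119 and 108 under compound 5, and 73.0 and 70.4 under compound 6. Only with compound 5 was it called (log2 fold change 0.50, SE 0.12, edgeR adjusted p = 0.0129). With compound 4 the samples fell on both sides of the controls (0.08, 95% interval -0.19 to 0.35), and with compound 6 both lay below them without passing the test (-0.17, 95% interval -0.44 to 0.10, edgeR adjusted p = 0.495). Since compounds 5 and 6 were also compared directly, its difference between them could be tested, and it was 0.66 (95% interval 0.39 to 0.93, edgeR adjusted p = 0.0104).

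Because a heavy chain pairs with several light chains, the transcripts were also compared per length. Of 6 known light chains, SLC7A5, SLC7A6, and the cystine/glutamate exchanger SLC7A11 were expressed, whereas SLC7A7, SLC7A8, and SLC7A10 had at most 3 counts in any sample. In DMSO, SLC3A2 amounted to 0.946 and 0.834 times the sum of these 3 light chains in CPM per kb. The ratio was 1.26 and 1.53 under compound 4, 2.23 and 2.57 under compound 5, and 1.06 and 1.27 under compound 6. Both compound 5 samples stood above all others, and every treated sample above both controls. SLC7A5 made up 77.9% to 86.7% of the light chains in every sample. The share of SLC7A11 was 5.06% and 5.09% in DMSO, 8.42% and 5.81% under compound 4, 13.9% and 10% under compound 5, and 9.87% and 11.4% under compound 6. These are ratios of transcripts, not of assembled protein, and they depend on the transcript lengths used. SLC3A2 has 2222 bases, against 4537 for SLC7A5, 6308 for SLC7A6, and 9645 for SLC7A11. The length pattern between the compound 4 replicates was not corrected in these ratios and shares, and its part was not tested.

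SLC7A1 (CAT1; chromosome 13, 29509410 to 29595688, minus strand), the main carrier of arginine and lysine in many cells, was at 122 and 126 CPM in DMSO, 182 and 141 under compound 4, 300 and 269 under compound 5, and 171 and 216 under compound 6. All treated samples lay above the controls, but the compound 4 replicates were far apart. It rose with compound 5 (log2 fold change 1.20, SE 0.15, edgeR adjusted p = 0.000374) and with compound 6 (0.64, SE 0.15, edgeR adjusted p = 0.0359). With the replicate block the call for compound 6 was lost (edgeR adjusted p = 0.0518). With compound 4 it was not called (0.38, SE 0.15, edgeR adjusted p = 0.12).

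The sodium-coupled neutral amino acid transporters SLC38A1 (SNAT1; chromosome 12, 46183063 to 46270017, minus strand) and SLC38A2 (SNAT2; chromosome 12, 46358189 to 46372867, minus strand) are neighbours in the genome. SLC38A2, a glutamine and alanine carrier known to be induced by amino acid starvation, was at 859 and 878 CPM in DMSO, 1370 and 1300 under compound 4, 2130 and 2000 under compound 5, and 1120 and 1230 under compound 6. The 4 groups did not overlap. Its log2 fold changes were 0.62 (SE 0.10, edgeR adjusted p = 0.00342), 1.25 (SE 0.10, edgeR adjusted p = 6.68e-05), and 0.44 (SE 0.10, edgeR adjusted p = 0.0365) with compounds 4, 5, and 6, the last of which was lost with the replicate block (edgeR adjusted p = 0.0518). SLC38A1 was at 186 and 208 CPM in DMSO, 351 and 233 under compound 4, 504 and 397 under compound 5, and 300 and 338 under compound 6. All its treated samples exceeded the controls, yet only the rise with compound 5 was called (1.19, SE 0.18, edgeR adjusted p = 0.00117). The estimates of 0.57 with compound 4 (edgeR adjusted p = 0.0674) and of 0.69 with compound 6 (edgeR adjusted p = 0.0579) missed the threshold, whereas DESeq2 called both (DESeq2 adjusted p = 0.0122 and 0.00209).

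The replicate gap of compound 4 was wide in the 3 members with transcripts over 6 kb. From replicate 1 to replicate 2 the log2 difference was -0.59 in SLC38A1 (longest transcript 8066 bases), -0.36 in SLC7A1 (7347 bases), and -0.32 in SLC7A6 (6308 bases). In contrast, it was 0.20 in SLC3A2 (2222 bases), 0.18 in SLC43A1 (2598 bases), and 0.14 in SLC1A5 (2882 bases). SLC6A9, with 3130 bases and few counts, departed from this order at -0.35. When the length trend of each sample was removed, an alternative chosen after seeing the data, SLC38A1 and SLC7A1 were called with compound 4 (edgeR adjusted p = 0.00478 and 0.0157) and SLC38A1 under compound 6 (edgeR adjusted p = 0.00966). The same calls were made with the replicate block added (edgeR adjusted p = 0.00571, 0.02, and 0.0116). With this correction (no block), members called numbered 7 under compound 4, 10 under compound 5, and 8 under compound 6, while calls over all genes rose from 1598 to 2228, from 3763 to 4445, and from 590 to 1137.

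Both neutral amino acid exchangers of the SLC1 family were measured. SLC1A5 (ASCT2; chromosome 19, 46774883 to 46788594, minus strand), a glutamine carrier, was at 400 and 383 CPM in DMSO, 569 and 629 under compound 4, 867 and 859 under compound 5, and 542 and 656 under compound 6. It rose with all 3 compounds, by a log2 fold change of 0.61 (SE 0.11, edgeR adjusted p = 0.00718), 1.14 (SE 0.11, edgeR adjusted p = 0.000155), and 0.61 (SE 0.11, edgeR adjusted p = 0.0166). SLC1A4 (ASCT1; chromosome 2, 64988477 to 65023865, plus strand), which prefers alanine, serine, and cysteine, moved much less. Its level was 85.9 and 74.5 CPM in DMSO, 91.9 and 98.4 under compound 4, 108 and 116 under compound 5, and 96.5 and 100 under compound 6. Although no treated sample fell within the range of the controls, only compound 5 passed (0.48, SE 0.11, edgeR adjusted p = 0.00908), and the values for compounds 4 and 6 were 0.25 (95% interval 0 to 0.49, edgeR adjusted p = 0.177) and 0.30 (95% interval 0.05 to 0.54, edgeR adjusted p = 0.162).

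SLC6A9 (GlyT1; chromosome 1, 43991500 to 44031467, minus strand), a sodium- and chloride-dependent glycine carrier, was the least abundant per length. It was at 11.2 and 10.5 CPM in DMSO, 15.3 and 12.0 under compound 4, 26.1 and 26.2 under compound 5, and 15.8 and 25.7 under compound 6. The compound 6 replicates were 0.70 apart on the log2 scale, the widest gap of any member in any group. It rose with compound 5 (log2 fold change 1.27, SE 0.21, edgeR adjusted p = 0.00201) and with compound 6 (0.95, SE 0.22, edgeR adjusted p = 0.0372, lost with the replicate block at 0.0547). With compound 4 it was not called (0.33, 95% interval -0.16 to 0.82, edgeR adjusted p = 0.382).

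SLC43A1 (LAT3; chromosome 11, 57484534 to 57515786, minus strand) carries branched-chain amino acids and phenylalanine by facilitated diffusion, without a heavy chain. Its level was 92.0 and 83.8 CPM in DMSO, 121 and 138 under compound 4, 128 and 140 under compound 5, and 121 and 142 under compound 6. All treated samples lay above the controls and those of the 3 compounds overlapped one another. It rose by nearly the same amount with each: 0.56 (SE 0.12, edgeR adjusted p = 0.0137), 0.61 (SE 0.12, edgeR adjusted p = 0.00452), and 0.58 (SE 0.12, edgeR adjusted p = 0.0262) for compounds 4, 5, and 6.

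The compounds were next compared with each other in 3 pairs, each adjusted over the 13404 genes and not over the pairs. Neither dose nor viability at sampling was matched, and the part of chemical structure in these comparisons was not tested. Compound 5 gave higher levels than compound 4 for 8 of the 10 transporters, whereas 6.91% of all genes tested were called higher. The largest difference was that of SLC3A2 at 1.25 (95% interval 0.88 to 1.62, edgeR adjusted p = 0.00489), followed by SLC6A9 at 0.94 (0.48 to 1.40, edgeR adjusted p = 0.0186) and SLC7A1 at 0.82 (0.50 to 1.14, edgeR adjusted p = 0.00926). SLC38A1 and SLC38A2 both differed by 0.63 (edgeR adjusted p = 0.0441 and 0.00676), SLC1A5 by 0.53 (edgeR adjusted p = 0.0173), and SLC7A6 by 0.42 (edgeR adjusted p = 0.046). SLC7A5 differed by 0.38 (edgeR adjusted p = 0.0475), which did not pass with the replicate block (edgeR adjusted p = 0.0588). The 2 members not called were SLC1A4 (0.23, 95% interval -0.01 to 0.47) and SLC43A1 (0.05, 95% interval -0.21 to 0.31). This count also depended on single libraries: 1 member was called without compound 5 replicate 1, 3 without compound 5 replicate 2, 4 without compound 4 replicate 2, and 5 without either DMSO replicate. Calls over all genes then fell from 1869 to 111, 167, 579, 1164, and 1207. The members' count was also 5 under upper-quartile or library-size scaling and with only the groups compared, and with the length correction SLC7A5 and SLC7A6 missed the threshold (edgeR adjusted p = 0.0583 and 0.0577).

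Compared with compound 6, compound 5 gave higher levels for 6 of the 10 transporters, against 4.76% of all genes tested. These were SLC3A2 (1.48, 95% interval 1.11 to 1.85, edgeR adjusted p = 0.00159), SLC38A2 (0.81, 0.59 to 1.03, edgeR adjusted p = 0.00201), SLC7A6 (0.66), SLC7A1 (0.56, edgeR adjusted p = 0.0375), SLC1A5 (0.53, edgeR adjusted p = 0.018), and SLC7A5 (0.41, edgeR adjusted p = 0.0467). SLC7A1 and SLC7A5 were lost with the replicate block (edgeR adjusted p = 0.0535 and 0.0569), which left 4. Both also missed the threshold under upper-quartile scaling (edgeR adjusted p = 0.0528 and 0.0878) and under library size alone (edgeR adjusted p = 0.061 and 0.0804). Not called were SLC38A1 (0.50, 95% interval 0.10 to 0.90), SLC6A9 (0.32, -0.12 to 0.77), SLC1A4 (0.19, -0.06 to 0.43), and SLC43A1 (0.03, -0.24 to 0.29). Without compound 5 replicate 1 or compound 6 replicate 1 the count was 2, and without compound 5 replicate 2 it was 3, while calls over all genes fell from 1329 to 143, 211, and 278.

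Between compounds 4 and 6, none of the 10 transporters was called. The same fit called 0.0448% of all genes in this pair in either direction, 6 genes, which became 117 without compound 4 replicate 1, still with 0 members. A single member had an unadjusted p under 0.05 in edgeR, SLC6A9, which was lower with compound 4 by -0.62 (95% interval -1.08 to -0.15, unadjusted p = 0.014, edgeR adjusted p = 0.414), and DESeq2 called 0 members. For SLC1A5 the difference was 0 (95% interval -0.25 to 0.25), for SLC43A1 -0.02 (-0.29 to 0.24), and for SLC7A5 0.03 (-0.22 to 0.28). Wider intervals remained for SLC3A2 (0.23, -0.13 to 0.60) and SLC38A1 (-0.13, -0.52 to 0.27). The absence of calls does not show that both compounds act alike.

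**Figure D3:**
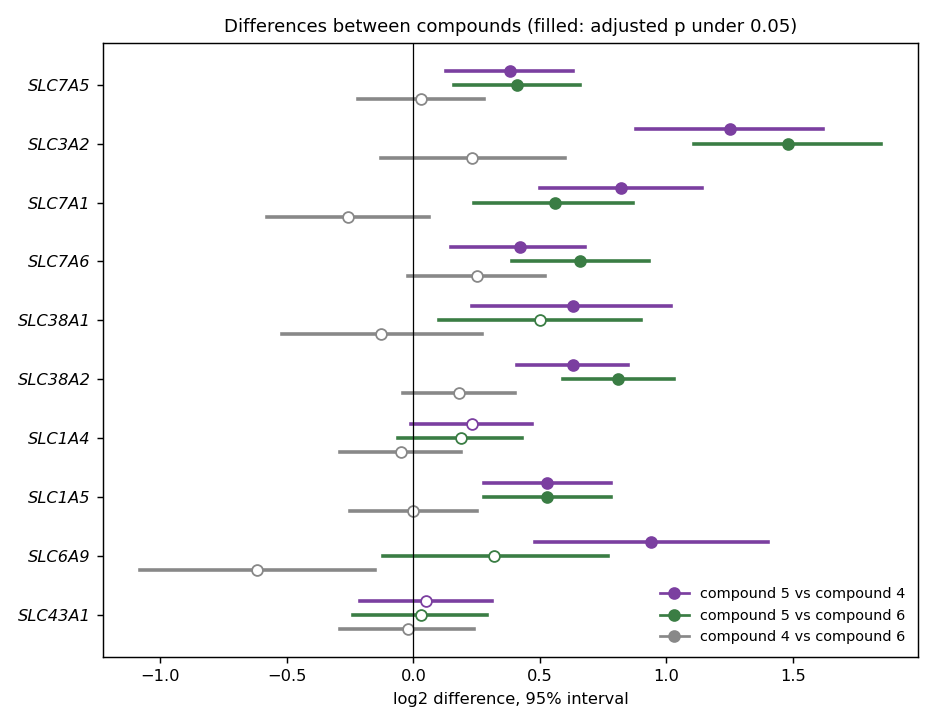
Log2 difference between compounds (horizontal axis) for each transporter; points are edgeR estimates, lines 95% intervals, and filled points have an adjusted p under 0.05. Compound 5 against compounds 4 and 6 lies right of 0 for all members (SLC43A1 turns to -0.02 and -0.05 under upper-quartile or library-size scaling), whereas 9 of the 10 intervals of compound 4 against compound 6 span 0.

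Other genes of amino acid handling were counted from lists. Of 29 further plasma membrane transporters, 12 were expressed enough to be tested, and the rest had at most 6 counts in any sample. Of these 12, 5 rose with compound 4, 5 under compound 5, and 1 under compound 6, and none fell, beside 6.5%, 13.9%, and 2.8% of all genes tested that rose. At an unadjusted p under 0.05 in edgeR, 5 were higher with each compound. The aromatic amino acid transporter SLC16A10 was lower at this level under compound 4, by -0.40 (edgeR adjusted p = 0.155), as it was under compound 6, by -0.61 (edgeR adjusted p = 0.07), but did not pass. With the replicate block 4 rose with compound 4, since SLC43A2 was lost (edgeR adjusted p = 0.0466 without and 0.0619 with it). Their median log2 fold changes were 0.10, 0.19, and 0.17. SLC7A11 was the 1 that rose with all 3 compounds, from 55 and 53.3 CPM in DMSO to 137 and 89.4, 311 and 213, and 141 and 200 CPM with compounds 4, 5, and 6. Its log2 fold changes were 1.06 (SE 0.24, edgeR adjusted p = 0.016), 2.27 (SE 0.24, edgeR adjusted p = 2e-04), and 1.66 (SE 0.24, edgeR adjusted p = 0.00642). The taurine transporter SLC6A6 rose with compounds 4 and 5 (0.62 and 1.02), SLC6A14 under compound 5 (0.73), and the glutamate transporter SLC1A7 under compound 4, from 4.73 and 3.62 to 11.9 and 11.5 CPM (1.49, SE 0.21, edgeR adjusted p = 0.00172). SLC1A7 under compound 5 was at 4.58 and 4.32 CPM (0.10, edgeR adjusted p = 0.77).

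Carriers of organelles were counted in the same way. Of all genes tested, 6.5%, 13.9%, and 2.8% rose with compounds 4, 5, and 6. Of 9 lysosomal amino acid transporters, 7 were tested, with medians of 0.11, 0.43, and 0.15. None was called with compound 6, though 3 were higher at an unadjusted p under 0.05 in edgeR. At a share of 2.8% of all genes, the absence of calls is no result about the list. With compound 4, 3 rose, and with compound 5, 4 rose. They included SLC66A1, an exporter of cationic amino acids (0.86, edgeR adjusted p = 0.00915, with compound 4 and 0.84, edgeR adjusted p = 0.00497, with compound 5), and SLC38A7, an exporter of glutamine and asparagine (0.72 and 0.45). The cystine exporter CTNS rose with compounds 4 and 5 (0.49 and 0.43), and the arginine sensor SLC38A9 under compound 5 (0.50). Of 12 mitochondrial carriers, 10 were tested, of which 1 rose with compound 4 (6.5% of all genes did), and 1 rose and 3 fell with compound 5 (13.9% and 14.2%), too few to read against these shares. The glutamate carrier SLC25A22 rose with compounds 4 and 5 (0.46 and 0.51), while the serine carrier SFXN3, the basic amino acid carrier SLC25A29, and SFXN2 fell with compound 5 (-0.86, -0.73, and -0.65). None was called with compound 6 (1 lower at an unadjusted p under 0.05 in edgeR), and the medians were -0.10, -0.24, and -0.03.

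All 23 listed enzymes that make amino acids were tested, and 4 rose and 1 fell (0 with the replicate block) with compound 4, 9 rose and 3 fell with compound 5, and 8 rose with compound 6 (7 with the block, which lost BCAT1, edgeR adjusted p = 0.0474 without and 0.0529 with it). Over all genes, 6.5%, 13.9%, and 2.8% rose and 5.42%, 14.2%, and 1.6% fell, so the falls are no result about the list. Asparagine synthetase ASNS was at 63.8 and 56.8 CPM in DMSO, 119 in both compound 4 samples, 191 and 213 under compound 5, and 153 and 194 under compound 6. It rose by 0.98 (edgeR adjusted p = 0.00159), 1.74 (edgeR adjusted p = 5.75e-05), and 1.53 (edgeR adjusted p = 0.00151). The aspartate aminotransferase GOT1 also rose with each compound (0.57, 1.15, and 0.72), and the transsulfuration enzyme CTH rose with compounds 5 and 6 (1.60 and 1.03). PYCR3, of proline synthesis, fell with compound 5 (-1.16, edgeR adjusted p = 0.00188).

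Of 17 genes of the integrated stress response, 16 were tested and CHAC1 had at most 2 counts. With compound 4, 4 rose, with compound 5, 11, and with compound 6, 7, and none fell. Of all genes tested, 6.5%, 13.9%, and 2.8% rose, and 5.42%, 14.2%, and 1.6% fell. With the replicate block, 5 rose and 1 fell with compound 4, 12 rose with compound 5, and 6 rose with compound 6. The fall was DDIT4 (-0.50), which rose with compound 5 under the block (0.46, edgeR adjusted p = 0.0538 without and 0.0271 with it). ATF4 rose with compounds 5 and 6 (0.84 and 0.53). With compound 4 it was at 0.41 (edgeR adjusted p = 0.0538 without and 0.04 with the block). The median log2 fold changes of the 16 genes were 0.38, 1.19, and 0.52. DDIT3, the transcription factor CHOP, was at 10.3 and 6.25 CPM in DMSO, 19.9 and 20.4 under compound 4, 56.7 and 56.9 under compound 5, and 13.9 and 24.6 under compound 6. It rose by 1.30, 2.79 (edgeR adjusted p = 0.000109), and 1.24, the last lost with the replicate block (edgeR adjusted p = 0.0318 without and 0.0507 with it). PPP1R15A, which directs dephosphorylation of eIF2 alpha, rose with compounds 4 and 5 (0.99 and 2.73), ATF3 under compound 5 (1.82), and NUPR1 with all 3 (2.12, 1.45, and 1.42). With compound 6 the estimate for PPP1R15A was 0.98, near that with compound 4, but it did not pass (edgeR adjusted p = 0.0672). ATF3 did not pass with compound 4 (0.54, edgeR adjusted p = 0.251) or compound 6 (0.84, edgeR adjusted p = 0.121).

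All 36 listed genes that link amino acid levels to the kinase mTORC1 were tested: 1 rose and 1 fell with compound 4, 5 rose and 3 fell with compound 5, and 1 rose with compound 6. Of all genes tested, 6.5% rose and 5.42% fell under compound 4, against 13.9% and 14.2% under compound 5, and 2.8% and 1.6% under compound 6, so these counts are no result about the list, and the medians were 0.06, -0.02, and 0.01. The leucine sensor SESN2, which is also on the stress response list, rose with compounds 5 and 6 (1.53 and 0.90), while its relative SESN1 fell with compounds 4 and 5 (-0.99 and -1.25). FLCN, which acts on the Rag GTPases, rose with compounds 4 and 5 (0.56 and 0.70), and LAMTOR4, a subunit of the lysosomal Ragulator complex, fell with compound 5 (-0.74).

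The patterns of the 10 transporters across the 8 samples resembled each other to a different degree. Log2 CPM of SLC7A5 gave a Pearson r of 0.991 with SLC1A5, 0.973 with SLC3A2, and 0.954 with SLC38A2, but 0.582 with SLC7A6, which ranked 2841 among the 12692 genes compared. Over all pairs of members r ranged from 0.165 to 0.991, with a median of 0.872. The genes most like SLC7A5 were PHC2 (r = 0.997), a subunit of a Polycomb complex, DUSP5 (r = 0.997), a nuclear ERK phosphatase, SH2D3A (r = 0.996), RASD1 (r = 0.996), and the Notch ligand JAG1 (r = 0.995). JAG1 was at 155 and 162 CPM in DMSO, 552 and 453 under compound 4, 1140 and 1160 under compound 5, and 358 and 699 under compound 6. These correlations over 8 samples describe likeness alone, since the samples fall into 4 groups and share their controls, depth, and treatment.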

How the data were processed

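RNA of CYP3A4-overexpressing HepG2 cells was sequenced from strand-specific mRNA libraries. The authors quantified reads with Salmon 1.5.0 on GENCODE transcripts (GRCh38) and summarized transcripts by gene in tximeta. The table they deposited holds estimated counts as whole numbers without scaling; whether quantification used the strand is not given in the sources used here, so that SLC38A2 and its antisense neighbour SLC38A2-AS1 may share reads. All 8 columns were mapped to samples by their labels.

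In R 4.3.3, edgeR 4.0.16 fitted a quasi-likelihood model with the 4 groups to all 8 samples after filterByExpr and TMM scaling, and p-values were adjusted over 13404 genes by the Benjamini-Hochberg method. CPM were scaled by TMM, except those of marker genes of cell types and of the floor of 3 counts, which were per library total. The members, gene lists, and tests were chosen with earlier results of these data known. Named genes were the 10 members, CYP3A4, the SLC7A5 copies, up to 4 called genes per list with the largest change against DMSO at a mean of at least 1 CPM, and the 5 genes most correlated with SLC7A5. A few further genes of the lists are named, mainly where the replicate block changed a call. Symbols came from a table of gene names, coordinates, lengths, and shared 31-base words from GENCODE 29, and promoters from RefSeq (GRCh38.p14). The length correction used a lowess curve per sample on log2 length as offset, with a length for 99.4% of genes. Replicates of a group differed by more than counting noise, and none was counted as a duplicate. Same-numbered samples share a day in the labels, and their deviations correlated between -0.083 and 0.16. The procedure was tested on simulated data. Alternatives were DESeq2 1.42.0, RLE, upper-quartile, and library-size scaling, 2 other filters, the replicate block, fits of only the groups compared, a cutoff of 0.01, the length correction with and without block, and leaving out each replicate, where the lone sample was assumed to vary like the other groups.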

Additional observations from a re-analysis of the deposited data

How the results depend on the processing

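The direction of every member against DMSO was kept under each scaling, filter, and tool tried. Only without compound 4 replicate 1 did SLC7A6 turn, and its range over such fits was -0.09 to 0.25 with compound 4. Leaving out 1 replicate gave 2 to 7 members called with compound 4, 8 to 10 with compound 5, 0 to 8 with compound 6, 1 to 7 for compound 5 over compound 4, 2 to 7 for compound 5 over compound 6, and 0 between compounds 4 and 6. At a cutoff of 0.01 these counts were 4, 9, 0, 3, 2, and 0, against 5, 10, 7, 8, 6, and 0 at 0.05. With compound 6, 9 members had an unadjusted p under 0.05 in edgeR. For compound 5 over compound 4 the count was 5 under upper-quartile factors, under library size alone, and with only the groups compared, and for compound 5 over compound 6 it was 4 under both scalings. Between compounds 4 and 6 it was 1 without a filter. The replicate block gave 4 with compound 6, and the calls it lost are named in the report; it changed no other call of a member. DESeq2 called 6, 10, 8, 8, 7, and 0. Over all genes it made 1389, 2944, 712, 1555, 1138, and 74 calls, with 12587, 13027, 13468, 11266, 11706, and 14349 genes tested.

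For compound 5, upper-quartile factors and library size alone moved the median of all genes to -0.12 and -0.14, and that of the 10 members to 1.08 and 1.06. Of the genes called with compound 5, 49.3% were higher with TMM, 36.6% with upper-quartile factors, 33.3% with library size alone, 53.1% with RLE factors, and 59.2% with DESeq2. Over all genes, compound 6 had 590 calls, 1 without DMSO replicate 2, 49 without compound 6 replicate 2, 1441 without a filter, 92 at a cutoff of 0.01, 1137 with the length correction, and 1206 with this correction and the block. Between compounds 4 and 6 it was 6, but 294 without a filter, 74 in DESeq2, and 117 without compound 4 replicate 1. With compound 5 there were 3763, or 1809 at 0.01, and 1680 to 4519 with a replicate left out. For compound 5 over compounds 4 and 6 there were 1869 and 1329 calls, 2812 and 2117 without a filter, 279 and 282 at a cutoff of 0.01, 111 and 143 without compound 5 replicate 1, and for compound 4 itself 1598, or 591 at 0.01. The share higher for compound 5 over 4 was 49.5% with TMM, 33% with upper-quartile factors, and 67.1% in DESeq2, and over 6 it was 48%, 28.7%, and 64.3%.

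The reversed values were all of uncalled members. SLC43A1 was at -0.02 (compound 5 over 4) and -0.05 (5 over 6) under upper-quartile factors and library size alone, SLC1A5 at 0 (4 against 6) with the block, and SLC1A4 at 0 (4 against 6) with the length correction, with and without block. With a replicate left out, SLC43A1 ranged from -0.04 to 0.16 (5 over 4), -0.08 to 0.16 (5 over 6), and -0.15 to 0.10 (4 against 6). Between compounds 4 and 6, such fits gave -0.10 to 0 for SLC1A4, -0.15 to 0.14 for SLC1A5, -0.45 to 0.13 for SLC38A1, -0.14 to 0.19 for SLC7A5, and -0.04 to 0.54 for SLC3A2. The cause was not tested. With 2 samples a group, differences near the interval widths given were at the limit of what these data show.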
